A study of Mus musculus with 70 samples.

Results

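Weak cortex-only TRβ sites are stretches of cerebral cortex chromatin at which a tagged thyroid hormone receptor β (TRβ-HAB) was captured in untreated mice with few reads, and at which the pituitary list of the same receptor has no site. They were chosen by measured values, namely fewer than 18 reads from the merged HAB;BirA libraries of the cortex and no overlap of even 1 bp with a pituitary site. Of the 5164 cortex sites 3245 (62.8%) met both conditions, out of 13215 sites in the cortex and pituitary lists together. The comparison sets were the 1042 cortex-only sites with 18 reads or more, called strong here, the 877 cortex sites that overlapped a pituitary site, called shared, and the 3725 pituitary-only sites with fewer than 18 reads, called weak pituitary-only.

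TRβ is the product of Thrb and binds DNA mostly as a heterodimer with a retinoid X receptor. Its best known element is the DR4, a direct repeat of AGGTCA with a 4 base spacer. Without T3 the receptor recruits corepressors such as Ncor1, and with T3 it recruits coactivators. In the cerebral cortex T3 is needed for neuronal maturation, migration and myelination, and TRα is the more abundant receptor there, while TRβ is prominent in the pituitary, where it controls thyrotropin.

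In ChAP-seq, streptavidin captures the receptor of ThrbHAB/HAB; Rosa26BirA/BirA mice (HAB;BirA), which carry a biotinylation tag on both TRβ isoforms and the biotin ligase BirA at Rosa26 in all tissues. Control mice (BirA) carry the ligase without the tagged receptor. There were 3 HAB;BirA and 3 BirA libraries for each of cortex and pituitary, from untreated euthyroid adult males, with the tissue of more than 1 mouse in a library. The labels give C57BL/6J as the strain of all mice, whereas for the ChAP-seq mice the methods describe a mixed background with 129 strains and, for the BirA line, FVB/N, and for the ATAC-seq mice a cross with 129/Sv. The authors merged the libraries of a genotype before calling sites with SICER on mm9, so a site has 1 read count for each genotype and no spread between replicates. The genotype label of the untreated control libraries names the tagged genotype, whereas their titles and the methods name BirA mice, and which cortex libraries entered the merge could not be settled here. RNA-seq came from whole pituitaries, pooled for each library, of adult male wild-type and Thrb-deficient (Thrb-KO) mice. Their drinking water held perchlorate (1% KClO4) with methimazole (MMI, 0.05%), which makes them hypothyroid, or these drugs and in the end also T3 (0.5 µg/ml), which makes them hyperthyroid. There were 4 wild-type and 5 Thrb-KO libraries for each treatment. ATAC-seq compared the same treatments, with 4 libraries each, in pituitary nuclei sorted by a Sun1-GFP label that Thrb b2Cre switches on, so that only cells with a history of TRβ2 expression were read. No RNA or open chromatin of the cortex was measured, and sites of a cortex list are set beside values of the pituitary wherever RNA or ATAC appears.

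The members were close to the lowest read numbers that the lists hold. Their HAB;BirA reads ran from 7 to 17 with a median of 11, and their control reads from 0 to 3 with a median of 1. No control read fell in 1012 members (31.2%), 1 in 1536, 2 in 525 and 3 in 172. The HAB;BirA reads entered the choice of members and the control reads the calling of sites, so these values are description only. Fold over control, as deposited, ran from 4.54 to 57.9 around a median of 9.37. In the cortex list the raw ratio of reads was 1.17 times that fold, and where the control had no read the fold corresponded to at most 0.25 of a control read, so that the highest folds belong to members without a control read. The reads a member needed rose with its control reads, from at least 7 with no control read to at least 10, 13 and 16 with 1, 2 and 3. Just inside the read limit, the 143 members with 17 reads had a median fold of 7.24, a median width of 500 bp and a transcription start within 1 kb in 49.0% of cases. Just outside it, the 99 cortex-only sites with 18 reads had a median fold of 7.67, the same median width and a start within 1 kb in 45.5%. CpG-rich windows were 41.96% inside and 37.4% outside, and a DR4 with at most 2 mismatches was found in 6 sites (4.20%) inside and 2 (2.02%) outside. No test was made of these differences.

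The lowest false discovery rate of the peak caller, 2.68e-24, was shared by 13 members, each with 17 HAB;BirA reads, no control read and a fold of 57.9. The tie left no 5 to single out, so more are named. Kcnj10, the inwardly rectifying potassium channel of astrocytes, held its site at chr1:174288551-174288900 in an intron, 17033 bp from the nearest start. Brsk2, a kinase of neuronal polarity, held one at chr7:149147351-149147650, also in an intron. The immune checkpoint gene Cd276 and the translation regulator Bzw2 carried theirs in introns on chromosomes 9 and 12, and Gm16862 and the hair cell gene Loxhd1 on chromosomes 17 and 18. Of the 13 members 5 lay within 1 kb of a start (38.5%). Among these were the sites of the prostaglandin synthase Ptges2, of the splicing factor Cwc22, of the translation factor Eif4g3 and of Capzb, which caps actin filaments. The site of Eif4g3 was 800 bp wide and covered a start in a CpG-rich window. The other 2 were intergenic, 38916 bp from Gm14274 and 20333 bp from SNORA70. None of the 13 had a pituitary site closer than 18851 bp, the distance at Capzb.

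A transcription start lay within 1 kb of 1013 members (31.2%, 95% Wilson interval 29.6 to 32.8%). Of the rest 1019 were intronic, 1002 intergenic, 155 in coding exons, 37 in untranslated exons and 19 in other exons. The start-proximal members covered a start in 588 cases, their centres fell on both sides of it (514 upstream, 497 downstream), and 943 of them were at protein-coding genes. They named 1153 genes, since 172 sites lay near the starts of more than 1 gene. The distance to the nearest start had a median of 6367 bp over all members, and 487 members (15.0%) were more than 50 kb from any.

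The share near starts set the members apart from each of the other sets. It was 56.6% in strong cortex-only sites (Fisher's exact test, two-sided, adjusted p = 1.45e-47), 62.9% in shared sites (adjusted p = 1.27e-63) and 22.2% in weak pituitary-only sites (adjusted p = 3.19e-17). With a false discovery rate under 1e-10 the last difference fell from 8.99 to 3.92 points (Fisher's exact test, adjusted p = 0.00639). Sites are the units of these tests, which cover counting error only, and p-values were adjusted after Benjamini and Hochberg over all 13 comparisons of shares. Among the members themselves the share rose with the reads, from 21.4% at 7 to 9 reads through 22.9% at 10, 29.0% at 11 to 12 and 38.3% at 13 to 14 to 44.4% at 15 to 17. It also rose with the control reads, from 24.5% at members without a control read to 28.5%, 42.9% and 59.9% at those with 1, 2 and 3. Members with more control reads needed more HAB;BirA reads to be called, and the 2 orders were not separated here. Strong sites were drawn by more reads and shared sites without a read limit, and both were wider, so that their contrasts with the members, for starts as for CpG-rich sequence, partly reflect how the sets were drawn.

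CpG-rich sequence followed the starts. A window of 500 bp around the centre was CpG-rich (at least 50% G+C and an observed over expected CpG of at least 0.6) in 750 members (23.1%, interval 21.7 to 24.6%), against 51.0% of strong cortex-only sites, 58.6% of shared sites and 13.2% of weak pituitary-only sites (Fisher's exact test, two-sided, adjusted p = 2.02e-61, 2.80e-84 and 1.32e-26). Of the start-proximal members 65.5% were CpG-rich and of the others 3.85%. In windows of the same length 10 kb to either side the share was 1.47%. Mean G+C was 54.4% in members and 45.8% in those windows.

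Along the chromosomes the members averaged 1.23 per Mb. Chromosome 11 was densest with 2.08 per Mb (254 members) and the X chromosome sparsest with 0.288 per Mb (48 members), of which 56.3% were near a start. On chromosome 12 only 14.3% of 140 members were near a start, the lowest share of any chromosome. Most members stood alone. Another cortex site lay within 1 kb of 119 members, and within 20 kb of 714 (22.0%).

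Although no member overlaps a pituitary site, 106 lay within 1 kb of one, and 749 (23.1%) within 20 kb. Those within 1 kb were near starts in 59.4% of cases, against 30.3% of the others, and their median reads were 11.5 against 11. Trpm7, a cation channel fused to a kinase, had a member 335 bp upstream of its start that ended 101 bp from a pituitary site and 151 bp from another cortex site. At Jun the member at chr4:94717801-94718300 lay 201 bp from a pituitary site. Trpm7 was one of the 18 members with the fewest DR4 mismatches, Jun was named for the list it belongs to, and the distances were looked at after their values were seen.

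Gene bodies held 2134 members (65.8%), spread over 1976 genes, of which 1705 held 1 and 62 held 3 or more. The most were in Gm20388 with 20 and Fgfr2, a fibroblast growth factor receptor, with 9, but their models in the annotation used reach 4435 kb and 3009 kb and enclose other genes that hold the same members. Per length these came to 4.51 and 2.99 members per Mb. Gm10406 held 6 members within 434 kb of chromosome 14. At 5 members followed Arfip1, Arhgap26, a GTPase-activating protein, and the predicted genes Gm2974 and Gm3383, again on chromosome 14. Of the genes that held 4, those named next were picked out after the counts were seen. Camk2b, a calcium-dependent kinase of synapses, held 4 in 96.7 kb (41.4 per Mb), all with 10 or 11 reads, beside 2 shared sites. Clip2, a microtubule-binding protein, held 4 in 63.0 kb (63.4 per Mb) and the DNA methyltransferase Dnmt3a 4 in 108 kb (36.9 per Mb). In Gabbr2, a subunit of the GABA-B receptor, 4 members shared the gene with 4 strong cortex-only sites.

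The members of chromosome 14 differed from the rest in the sequence under them. The 200 bp around each centre was cut into its 169 stretches of 32 bases, and a site was called multi-copy when more than 50% of them occurred elsewhere in mm9 on either strand. This measure was chosen after the positions were seen. It held for 409 members (12.6%, interval 11.5 to 13.8%), against 6.43% of strong cortex-only sites (67), 0.342% of shared sites (3) and 0.403% of weak pituitary-only sites (15). Fisher's exact test, two-sided, gave adjusted p = 1.00e-08, 4.22e-40 and 2.92e-118. Over whole lists the shares were 9.28% of cortex and 0.422% of pituitary sites. Every shared site overlaps a pituitary site, so that the contrast with shared sites also reflects how the sets were drawn. Sites of a cluster were counted as separate units, among them 61 members in 1 stretch of chromosome 14. A multi-copy member had a median of 18 copies and at most 26178, and 74 had 1000 or more. Only 9.29% of them were near a start and 55.3% were intergenic, while their median reads, 11, and median control reads, 1, equalled those of the single-copy members.

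On chromosome 14 multi-copy members were 77 of 164 (47.0%), and on the X chromosome 16 of 48 (33.3%). On the other chromosomes the share was 5.68 to 17%. All 61 members of chromosome 14 between 3035151 and 8517800 were multi-copy, with a median of 21 copies. Gm2974 (chr14:4126977-4307934), Gm3383 (chr14:5356914-5618529), Gm3358, Gm3629 and Gm10406 lie there, and they held 5, 5, 4, 4 and 6 members, with 9 to 17 reads in Gm2974 and 9 to 13 in Gm3383 and Gm10406. A read of such a sequence can be placed at more than 1 copy, so that the position of these members within the cluster is uncertain, and how the authors treated such reads is not given in the sources used here. Of sites named further on, those of Ncoa2, Flywch2, Hspa1b and most histone genes were multi-copy as well.

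Matches to the DR4 were sparse. The central 200 bp was searched on both strands for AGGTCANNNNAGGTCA with at most 2 mismatches of the 12 bases compared. It was found in 123 members (3.79%, interval 3.19 to 4.50%) and in 2.19% of 6480 windows of the same length placed 10 kb off (adjusted p = 9.32e-06 by Fisher's exact test, two-sided). The 103 matches at members away from starts made up 4.61% of those members, against 2.27% of their windows, whereas the 20 at start-proximal members were 1.97% of them, against 2.03% of theirs. Shared sites held a match in 11.1% and weak pituitary-only sites in 12.1% (two-sided Fisher's exact test, adjusted p = 8.76e-15 and 6.71e-38). By its construction the set leaves out every cortex site that overlaps a pituitary site, so that both of these contrasts also reflect how the sets were drawn.

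Strong cortex-only sites held a match in 3.36%, a difference of 0.43 points from the members (Fisher's exact test, two-sided, adjusted p = 0.571). The direction of this difference was not settled. Over the whole called site, which was wider in the strong set (median 600 against 400 bp), the shares were 6.44% of members and 8.83% of strong sites (Fisher's exact test, adjusted p = 0.00991), and among sites away from starts 4.61% and 5.53% (Fisher's exact test, adjusted p = 0.517). The other spacings of 0 to 8 bases gave 1.45 to 2.90% of members, each below the 2.10 to 3.56% found in the windows, and over all members only the 4 base spacer was above its windows. Away from starts spacers of 0 (3.27% against 3.19%), 3 (2.24% against 2.06%) and 5 bases (2.24% against 2.18%) were slightly above theirs as well, and none of these was tested. A single AGGTCA was present in 10.7% of members and 13.1% of windows.

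No member matched all 12 bases. A single mismatch was found in 18 members, of which 3 were near a start, with 9 to 16 reads. The 5 with the most reads were a site in an intron of Rbfox3, which encodes the neuronal splicing factor NeuN (16 reads against 3 control reads, chr11:118619951-118620200), a site 11118 bp from Cmya5, a muscle protein (15 against 1), a site 276355 bp upstream of Sema6d, an axon guidance cue (13 against 0), a site 4002 bp from the predicted gene Gm13066 (13 against 2), and a site in an intron of Cntn1, a contactin of axons and glial contacts (12 against 0). These 5 follow from the naming rule given in the processing notes. Phc3, a Polycomb protein, Trpm7 and Fos were added after their values were seen, the first pair because their sites lie at starts and Fos because it responds to neuronal activity. The member at Fos, chr12:86808701-86808950, ends 5890 bp upstream of the gene, held 11 reads against 1 and had no pituitary site within 151951 bp.

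The 100 bases around each of these matches are printed to show the elements themselves, 5′ to 3′ on the strand of the match, with the 12 compared bases in capitals and the spacer in lower case. In mm9 they are chr11:118619990-118620089 (plus strand) for Rbfox3, chr13:93799399-93799498 (minus) for Cmya5, chr2:123639104-123639203 (minus) for Sema6d, chr4:148946084-148946183 (plus) for Gm13066, chr15:91943088-91943187 (plus) for Cntn1, chr3:30868368-30868467 (plus) for Phc3, chr2:126702427-126702526 (minus) for Trpm7 and chr12:86808709-86808808 (plus) for Fos.
Rbfox3: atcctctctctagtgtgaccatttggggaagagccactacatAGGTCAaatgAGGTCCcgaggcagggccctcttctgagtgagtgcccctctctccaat
Cmya5: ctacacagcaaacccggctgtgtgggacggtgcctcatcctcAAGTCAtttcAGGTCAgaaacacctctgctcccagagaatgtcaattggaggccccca
Sema6d: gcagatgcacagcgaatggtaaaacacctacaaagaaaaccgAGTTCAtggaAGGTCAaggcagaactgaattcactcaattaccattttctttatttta
Gm13066: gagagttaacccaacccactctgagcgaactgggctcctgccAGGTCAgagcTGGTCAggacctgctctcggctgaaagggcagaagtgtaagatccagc
Cntn1: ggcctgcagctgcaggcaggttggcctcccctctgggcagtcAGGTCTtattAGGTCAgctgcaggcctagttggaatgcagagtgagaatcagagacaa
Phc3: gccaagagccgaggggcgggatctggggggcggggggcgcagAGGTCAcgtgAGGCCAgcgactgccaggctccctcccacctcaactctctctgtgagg
Trpm7: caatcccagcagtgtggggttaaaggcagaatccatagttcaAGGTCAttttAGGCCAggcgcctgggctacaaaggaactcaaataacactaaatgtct
Fos: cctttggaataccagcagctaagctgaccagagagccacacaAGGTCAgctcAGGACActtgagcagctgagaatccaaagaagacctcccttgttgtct

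Counting from 1 at the 5′ end of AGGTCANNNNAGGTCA, with the motif's base first, Rbfox3 carried A16C, Cmya5 G2A, Sema6d G3T, Gm13066 A11T and Cntn1 A6T. Phc3 and Trpm7 both carried T14C, and Fos T14A. Over the 18 members the T at position 14 was replaced most often, in 6 of them (T14C in 3, T14G in 2 and T14A in 1), followed by A16C in 3, at Rbfox3, Plekhg3 and n-R5s96. The match at Cmya5 was centred 1 bp and that at Larp7 3 bp from the middle of the site, while those at Gramd2 and Plekhg3 were 93 and 82 bp away from it. A match is a description of the letters and shows no binding to them.

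Other short sequences split the members by place. The GC box GGGCGG (or CCGCCC on the other strand) was present in 46.0% of start-proximal members and 3.91% of their windows, and in 7.93% of the others against 3.57%. The ETS sequence CCGGAAG was present in 8.59% of start-proximal members against 0.890%, and the CRE TGACGTCA in 1.09% against 0.148%. Away from starts the E-box CAGATGG of NeuroD factors was present in 9.41% against 4.58% of windows, and AP-1 (TGACTCA or TGAGTCA) in 7.80% against 3.28%. In start-proximal members these were 3.55% against 4.20% and 2.47% against 2.67%. In shared sites as a whole CAGATGG was present in 4.22%, in weak pituitary-only sites in 6.26%, in strong cortex-only sites in 7.29% and in all members in 7.58%. For AP-1 these shares, in the same order, were 6.27%, 6.39%, 4.22% and 6.13%. For the GC box they were 44.4%, 12.0%, 38.4% and 19.8%. The shares of whole sets were not split by place, although the sets differ in their share near starts. All were exact matches in the central 200 bp of both strands, given as shares without a test, and base composition differed between members and windows as stated above.

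Members within 1 kb of a start are shown for genes that are named below for their role. The 160 bases around the middle of the site are printed on the strand of the gene, with the motif named for each gene, on either strand, in capitals. They lie at chr2:27532346-27532505 (plus strand) for Rxra, chr2:61645221-61645380 (plus) for Tbr1, chr5:122345996-122346155 (minus) for Cux2 and chr2:102497971-102498130 (plus) for Slc1a2, all in mm9. Rxra shows the GC box as CCGCCC, Tbr1 and Slc1a2 the NeuroD E-box and Cux2 a single AGGTCA.
Rxra: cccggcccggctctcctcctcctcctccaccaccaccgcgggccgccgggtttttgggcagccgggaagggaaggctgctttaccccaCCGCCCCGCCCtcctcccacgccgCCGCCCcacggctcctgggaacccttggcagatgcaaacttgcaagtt
Tbr1: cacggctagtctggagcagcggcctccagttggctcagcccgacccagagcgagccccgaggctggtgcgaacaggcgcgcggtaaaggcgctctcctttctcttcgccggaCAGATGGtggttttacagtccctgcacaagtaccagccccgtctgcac
Cux2: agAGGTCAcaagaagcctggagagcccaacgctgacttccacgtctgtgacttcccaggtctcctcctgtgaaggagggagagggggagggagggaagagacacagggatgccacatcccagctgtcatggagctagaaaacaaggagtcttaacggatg
Slc1a2: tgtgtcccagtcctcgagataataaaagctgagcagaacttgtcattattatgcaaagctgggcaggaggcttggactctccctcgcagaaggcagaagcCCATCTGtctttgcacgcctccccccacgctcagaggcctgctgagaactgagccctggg

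Of 23 genes of thyroid hormone signalling 2 had a member at a start, and 4 within 20 kb of the gene. Over all 33887 annotated genes these shares were 3.40% and 13.4%. Here and in the lists below, members farther than 1 kb from a start were picked for naming after their values were seen. Rxra, the retinoid X receptor α that pairs with TRβ, had a member at chr2:27532201-27532650 with 12 reads against 1, 71 bp from a start and with 75.4% G+C. The corepressor gene Ncor1 had 1 member in an intron, with 10 reads against 0. The coactivator gene Ncoa2 had an intronic site of which 93.5% of the stretches were repeated. Thrb and Thra had none within 20 kb. Dio2, Dio3 and the transporter Slco1c1 had none either.

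Of 23 genes known to respond to T3 in brain none had a member at a start, where 3.40% of all genes have one, so that a count of 0 is near the share of all genes. At their starts 5 (21.7%) had a shared cortex site and 2 (8.70%) a strong cortex-only site, where 1.95% and 2.11% of all genes have one. Members lay within 20 kb of 4 of them (17.4%, against 13.4% of all genes), and no test was made. Mbp, the major protein of myelin, had 17 reads against 2 in an intron. Ntf3, a neurotrophin, had 11 against 1, 4112 bp from a start. The members counted for Camk4 and Flywch2 were nearer to other genes, Stard4 and Srrm2, and that of Flywch2 was multi-copy. Of 10 clock genes 1 lay within 20 kb of a member, Per2 (11 reads against 0, 1405 bp from a start), 6 within 20 kb of a shared site (5.06% of all genes) and 5 within 20 kb of a weak pituitary-only site (14.2% of all genes).

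Of 14 genes of excitatory cortical neurons 3 had a member at a start and 6 (42.9%) within 20 kb, where 13.4% of all genes have one. Strong cortex-only sites lay within 20 kb of 3 (21.4%), shared sites of 1 (7.14%) and weak pituitary-only sites of 4 (28.6%), where their shares of all genes were 5.81%, 5.06% and 14.2%. These sets differ in size, and the lists are too short for a ranking of the sets. Tbr1, the homeobox gene Emx1 of the cortical primordium and Cux2, a homeobox gene of upper layer neurons, had theirs at starts. Tbr1, a T-box factor of deep layer neurons, had 12 reads against 1, 771 bp from an internal start of the gene. The site of Emx1 covered the start with 13 reads against 2. Cux2 held 3 members. Those at chr5:122345801-122346350 (14 reads against 0) and chr5:122499001-122499550 (14 against 2) lay 411 and 310 bp from starts, and the one at chr5:122342401-122342700 had 11 against 0 and lay 2690 bp from a start. Neurod2 and Bcl11b had members inside the gene with 10 reads each.

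Of 10 genes of inhibitory neurons 2 had a member at a start and 4 (40.0%) within 20 kb. Weak pituitary-only sites lay that near to 3, strong cortex-only sites to 1 and shared sites to none. Gad2, which makes GABA, had 13 reads against 2 at chr2:22477801-22478300, 76 bp downstream of its start, and no pituitary site within 411151 bp. The vesicular GABA transporter Slc32a1 had 11 against 1, 494 bp upstream of the gene. Gad1 had 10 against 1 in an intron, and the site counted for Pvalb lay at the start of its neighbour Ift27. Among glial markers Slc1a2, the glutamate transporter of astrocytes, had 13 against 2 at 616 bp upstream of its start, next to another cortex site 101 bp away. Aqp4, the water channel of astrocytes, had 12 against 1 at 10858 bp from the gene. In all, 2 of 7 astrocyte, 1 of 9 oligodendrocyte (Mbp) and 0 of 5 microglial markers had a member within 20 kb. Strong cortex-only sites lay that near to 3 of the astrocyte markers (42.9%, against 5.81% of all genes), and weak pituitary-only sites to 2 of the astrocyte and 2 of the oligodendrocyte markers.

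Of 11 activity-induced genes 8 (72.7%) had a member within 20 kb, where 13.4% of all genes have one. Strong cortex-only sites lay that near to 3 (27.3%, against 5.81% of all genes), shared sites to 2 (18.2%, against 5.06%) and weak pituitary-only sites to 3 (27.3%, against 14.2%). Most of these sites lay outside the gene. Jun alone was marked at a start, with 13 reads against 2. Arc, a synaptic capsid-like protein, had 11 against 0 inside the gene, 2132 bp from a start. Fosb had 9 against 0 at 4707 bp upstream, Nr4a1 11 against 0 at 2778 bp beyond the gene, and Npas4 16 against 3 at 11730 bp upstream. The pair at Egr1 had 13 against 2 and 10 against 1, 11261 and 10811 bp upstream and 101 bp apart, and was nearer to Reep2. The site counted for Junb lay 19784 bp away inside Hook2. Egr2, Egr3 and Bdnf had none. The list is short, its genes share regulators, and no test was made of it.

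No member lay within 20 kb of any of 16 pituitary markers, which include Gh, Prl, Tshb, Cga, Pomc and Pou1f1. The same held for strong cortex-only and shared sites, while weak pituitary-only sites lay that near to 6. With 13.4% of all genes near a member few were to be expected in so short a list, and no test was made. Leaving out sites that overlap a pituitary site did not lower this count, since no shared site lay within 20 kb of a marker. Of 81 ribosomal protein genes 16 (19.8%) had a member within 20 kb and 5 (6.17%) at a start, among them Rps3a with 14 reads against 0, Rps12 with 13 against 2 and both Rpl37 and Rpl8 with 10 against 1. Of 39 proteasome genes none had one at a start and 6 (15.4%) had one within 20 kb. Of 70 histone genes, which are clustered, 18 (25.7%) had one within 20 kb and 6 (8.57%) at a start, but these 18 rest on only 7 sites. Strong cortex-only sites lay within 20 kb of 12 (17.1%) and at 6 starts. The genes with a member at a start were Hist3h2ba, Hist1h2an with Hist1h2bp under 1 site, Hist1h1c, Hist1h3b and Hist1h4a, where 2 members lay 251 bp apart. Of the stretches in these sites 72.8 to 98.8% were repeated at Hist3h2ba, Hist1h2bp, Hist1h3b and the nearer site of Hist1h4a, and 31.4% at Hist1h1c, so that reads could belong to other histone genes.

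Overlap with open chromatin that T3 regulates in the pituitary was rare. Of 1776 such ATAC peaks, whose direction of change is not in the list used, 10 members overlapped one (0.308%, interval 0.167 to 0.566%), and 0.0833% of the 1201 members with a false discovery rate under 1e-10 did so. Strong cortex-only sites did so in 7 cases (0.672%), shared cortex sites in 84 (9.58%), weak pituitary-only sites in 134 (3.60%) and strong pituitary-only sites in 654 (19.1%). Since pituitary sites were removed to form the set, this order is partly built in, and no test was made. Those named here were chosen after their values were seen. At Mal2, a protein of vesicle transport, a member with 9 reads against 0 lay 30 bp from the start. At Atp8a1, a phospholipid flippase, one with 13 against 2 lay 56 bp from an internal start. Slc25a42 held one in an intron (chr8:72724001-72724150, 8 against 0) and Pdxk, which activates vitamin B6, another (11 against 1). Gm15514 held one in an intron, and intergenic ones were nearest to Rab33b, Gm7850, Gm9978 and U7.

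RNA of the pituitary was read to ask whether genes with a member respond to T3 in a tissue where these sites were not called. Values are CPM, scaled to the total of each library and not divided by transcript length. Totals recovered for the 18 libraries were 21453548 to 55273749 reads. Replicates 1 and 2 of every group stood apart from the others. Lars2 lay at 2570 to 3420 CPM in these and at 53.2 to 95.1 CPM in replicates 3 to 5. For Thrb, Syt12, Cux2 and Hspa1b changes are also given within each of these sets. In bulk tissue fewer cells of a type and less RNA in each cell cannot be told apart. Thrb (NM_009380), the targeted gene, was at 239, 242, 249 and 297 CPM in hypothyroid wild-type libraries, at 124, 117, 72.4 and 103 CPM in hyperthyroid ones, and at 228 to 301 CPM in the 10 Thrb-KO libraries. It was thus not lower in Thrb-KO, and reads over the whole transcript do not check the genotype labels. In wild type it fell by 1.32 on the log2(CPM + 1) scale (limma adjusted p = 1.27e-06), by 0.99 in replicates 1 and 2 and by 1.64 in 3 and 4, and in Thrb-KO by 0.06 (limma adjusted p = 1). Thra fell by 0.44 in wild type, under the 1.5-fold limit.

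Genes with a member at a start responded at about the rate of all genes. T3 raised 509 of the 13145 genes tested in wild type and lowered 735 by the limits used here, 1.5-fold or more with limma adjusted p under 0.05. That is 9.46% of them, 3.87% higher and 5.59% lower. Higher genes were 40.9% of the calls in this fit and 52.0% with edgeR and DESeq2's size factors. Of the 1153 genes with a member at a start 1005 were in the table and 895 passed the filter of CPM above 1 in all libraries. Of these 35 were higher (3.91%) and 48 lower (5.36%), 9.27% in all, and with edgeR and those size factors 46 and 43. Their median change was -0.03 on the log2 scale and that of all genes -0.04. The response differed between genotypes (interaction, limma adjusted p under 0.05) for 51 of them (5.70%), against 5.46% of all genes. Within 20 kb of a member lay 2734 tested genes, of which 135 were higher and 159 lower (10.8%). At starts with a shared cortex site 56 genes were higher (9.91%) and 7 lower (1.24%) of 565 tested, with a strong cortex-only site 15 and 25 of 608, and with a weak pituitary-only site 39 and 36 of 738.

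The higher genes often had a pituitary site as well. A pituitary site within 20 kb was present at 25 of the 35 higher genes (71.4%) and 22 of the 48 lower (45.8%), against 42.5% of the tested genes with a member at a start. For most of the higher genes a member is therefore not the only TRβ site near the gene. The same share among all genes that T3 raised or lowered was not computed here. These shares are thus not shown to be particular to genes with a member. In the paper, sites bound in both treatments also lay within 20 kb of a larger part of T3-induced than of T3-suppressed genes. The genes described next are 5 that rose and 5 that fell, those that changed most among genes whose wild-type libraries did not overlap between treatments.

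Syt12 (NM_134164), a synaptotagmin of vesicle release, had a member at chr19:4476501-4477000 with 14 reads against 2, 126 bp from the nearest annotated start. The member was centred 697 bp downstream of the Syt12 start used below. Syt12 RNA lay at 3.08, 3.12, 2.07 and 2.07 CPM in hypothyroid and at 18.0, 17.7, 21.4 and 19.0 CPM in hyperthyroid wild-type libraries. In Thrb-KO it was at 1.53 to 3.22 CPM and 5.35 to 6.29 CPM. All hyperthyroid libraries lay above all hypothyroid ones in both genotypes, and the rise was smaller in Thrb-KO, 1.02 against 2.49 on the log2 scale (interaction 1.47, limma adjusted p = 9.39e-05). The change in wild type (SE 0.14, limma adjusted p = 6.51e-10) was 2.20 in replicates 1 and 2 and 2.79 in 3 and 4. A shared site with 36 cortex reads and 90 pituitary reads (chr19:4492851-4493350 in the pituitary) was centred at -15653 bp from the Syt12 start, upstream of it and nearer to the start of another gene, and overlapped a T3-regulated ATAC peak.

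Olfml2b (NM_177068), a secreted olfactomedin-like protein, held 3 members, of which chr1:172574451-172574700 covered its start with 15 reads against 2. It was at 3.08, 2.13, 2.07 and 2.18 CPM in hypothyroid and 14.8, 12.5, 13.3 and 16.3 CPM in hyperthyroid wild type. The groups were far apart, with the first hypothyroid library the highest of its group. The change was 2.18 on the log2 scale (limma adjusted p = 3.22e-10) and 1.18 in Thrb-KO, where the libraries ran from 1.13 to 1.80 and from 3.97 to 4.89 CPM (interaction 1.00, limma adjusted p = 0.000586). With a pseudocount of 5 the wild-type change was 1.38. Within 2401 bp of the intronic member at chr1:172585201-172585700 lay a pituitary site with 40 reads, again at a T3-regulated ATAC peak.

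Cux2 (NM_007804), with the 3 members given above, was at 12.6, 10.99, 7.62 and 7.72 CPM in hypothyroid and at 40.5, 40.8, 23.3 and 31.0 CPM in hyperthyroid wild type. In Thrb-KO the libraries were at 7.23 to 11.6 CPM and 7.63 to 10.8 CPM. The wild-type groups did not overlap and the Thrb-KO groups did. The change was 1.70 on the log2 scale in wild type (SE 0.19, limma adjusted p = 2.46e-06), nearly equal in replicates 1 and 2 (1.70) and 3 and 4 (1.69), and 0.05 in Thrb-KO (limma adjusted p = 1). The interaction was 1.65 (limma adjusted p = 0.000452). A pituitary site with 20 reads lay in the gene at chr5:122448951-122449250, and none came closer than 41451 bp to any of the 3 members.

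Slc25a42 (NM_001007570), the mitochondrial carrier of coenzyme A, had a member 197 bp upstream of its start (chr8:72736401-72736800, 12 reads against 1) and the intronic one at a T3-regulated ATAC peak. It was at 43.5, 40.8, 43.8 and 40.2 CPM in hypothyroid and at 149, 138, 91.6 and 158 CPM in hyperthyroid wild type. In Thrb-KO it stayed between 34.6 and 44.0 CPM and between 36.1 and 44.5 CPM. Hyperthyroid replicate 3 was the lowest of its group and still above every hypothyroid library. The change was 1.62 (SE 0.13, limma adjusted p = 5.60e-08) in wild type and 0.01 in Thrb-KO (interaction 1.61, limma adjusted p = 1.65e-05). A pituitary site with 28 reads at an internal start lay 5551 bp from the intronic member.

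Foxred2 (NM_001168260), a flavoprotein of the degradation of misfolded proteins, had a member over its start (chr15:77786951-77787300, 13 reads against 2). It rose from 29.8, 26.9, 26.6 and 24.4 CPM to 86.7, 87.7, 63.5 and 80.8 CPM in wild type, a change of 1.52 (SE 0.10, limma adjusted p = 2.11e-09). In Thrb-KO the libraries were at 29.3 to 31.8 CPM and 32.8 to 38.3 CPM, so that these groups did not overlap either, with a change of 0.22 (limma adjusted p = 0.395) and an interaction of 1.31 (limma adjusted p = 4.03e-06). A shared site with 89 cortex and 82 pituitary reads lay 22351 bp from its member, and a pituitary-only site with 35 reads (chr15:77762001-77762450) overlapped a T3-regulated ATAC peak.

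Of the genes that fell, Hspa1b (NM_010478), a heat shock protein of the Hsp70 family, changed most and least reliably. Hypothyroid wild-type libraries were at 9.90, 77.1, 7.58 and 19.6 CPM and hyperthyroid ones at 5.06, 3.30, 7.14 and 2.85 CPM. The change of -1.88 (SE 0.54, limma adjusted p = 0.0181) was -1.22 without hypothyroid replicate 2 (limma adjusted p = 0.0531), -1.72 without hyperthyroid replicate 4 (limma adjusted p = 0.0528) and -1.25 in replicates 3 and above alone (limma adjusted p = 0.112). In replicates 1 and 2 alone, which include that hypothyroid replicate 2, the change was -2.52 (limma adjusted p = 0.00676). Of the stretches in its member 81.1% are repeated, so that part of its ChAP-seq reads may belong to another copy, and whether RNA reads do was not tested.

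Tmem35 (NM_026239), a chaperone of nicotinic receptors, had a member at chrX:130829901-130830300 (10 reads against 0), 137 bp from a start, and no pituitary site within 324264 bp of the gene. It was at 37.0, 34.3, 49.7 and 44.8 CPM in hypothyroid and at 12.8, 10.6, 13.3 and 16.9 CPM in hyperthyroid wild type. In Thrb-KO it was at 23.2 to 38.6 CPM and 23.4 to 30.3 CPM, overlapping. Replicates 1 and 2 of Thrb-KO were at 23.2 and 26.1 CPM against 23.4 and 24.3 CPM. Replicates 3 to 5 did not overlap, at 34.2, 38.6 and 36.9 CPM in hypothyroid and 24.8, 25.9 and 30.3 CPM in hyperthyroid libraries. It changed by -1.56 on the log2 scale in wild type (SE 0.16, limma adjusted p = 1.16e-06) and by -0.27 in Thrb-KO (interaction -1.29, limma adjusted p = 0.00113). Among the 10 genes described here Tmem35 had the greatest distance to a pituitary site but for Serpine2, and its response was smaller in Thrb-KO.

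Serpine2 (NM_009255), an inhibitor of thrombin and plasminogen activators in brain, had a member at chr1:79854801-79855100, 171 bp from its start, with 10 reads against 1. A second one nearby (chr1:79772401-79772750, 16 against 2) covered the start of Mrpl44 and lay outside the gene. The nearest pituitary site was 436572 bp from the gene. It was at 92.1, 100.02, 123 and 139 CPM in hypothyroid and at 47.1, 40.7, 49.6 and 45.1 CPM in hyperthyroid wild type. The change of -1.28 (limma adjusted p = 5.9e-07) was -0.85 in Thrb-KO (limma adjusted p = 0.000162), and the interaction did not pass (-0.43, limma adjusted p = 0.194).

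Pld3 (NM_011116), a lysosomal protein of the phospholipase D family, had a member over an internal start (chr7:28327501-28328050, 15 reads against 0). It fell from 751, 669, 819 and 747 CPM to 338, 285, 317 and 331 CPM in wild type, by 1.23 on the log2 scale (limma adjusted p = 5.96e-09). In Thrb-KO it fell by 0.71, with an interaction of -0.52 (limma adjusted p = 0.00911). C2cd4a (NM_001163143), a nuclear C2 domain protein, had a member 987 bp from its start (11 against 1) in sequence of 77.2% G+C. Its libraries were at 7.48, 7.99, 8.59 and 7.65 CPM and at 3.46, 2.50, 2.27 and 3.43 CPM in wild type, a change of -1.20 (limma adjusted p = 1.71e-05). With a pseudocount of 5 this change was -0.71, which still passed the 1.5-fold limit. C2cd4a changed by -1.38 in Thrb-KO, with no interaction that passed (0.18, limma adjusted p = 0.883). A pituitary site with 25 reads against 2 lay 19089 bp from C2cd4a.

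Of listed genes with a member at a start, Cux2 alone was called. Rxra was at 58.5 to 84.2 CPM in hypothyroid and 42.2 to 85.5 CPM in hyperthyroid wild type (limma adjusted p = 0.774), and Slc1a2, Gad2 and Jun also overlapped between treatments. Tbr1, Emx1 and Slc32a1 did not reach 1 CPM in every library and were not tested.

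The 8 activity-induced genes with a member within 20 kb were all tested, and 1 (Npas4) was called, where 9.46% of all genes tested were called. Of the genes known to respond to T3 in brain with a member that near 3 were tested and 2 called, Flywch2 higher and Camk4 lower. Npas4 (NM_153553), a transcription factor of neuronal activity, was at 17.6, 15.5, 14.6 and 14.5 CPM in hypothyroid and at 9.22, 9.40, 7.50 and 9.66 CPM in hyperthyroid wild type. In Thrb-KO it was at 11.4 to 19.1 CPM and 14.3 to 21.7 CPM. A pituitary site with 15 reads against 2 lay 2980 bp from Npas4, nearer to the gene than its member. The gene was named after its values were seen. The change was -0.74 in wild type (SE 0.14, limma adjusted p = 0.000886) and 0.31 in Thrb-KO (limma adjusted p = 0.445), with an interaction of -1.04 (limma adjusted p = 0.00223). With a pseudocount of 5 its change of -0.56 fell under the 1.5-fold limit. Fos ran from 9.60 to 44.8 CPM and from 6.54 to 18.2 CPM in these groups (limma adjusted p = 0.629), and Egr1, Fosb, Junb, Arc and Nr4a1 overlapped between treatments as well.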

How the data were processed

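The members and lists were chosen with earlier results of these data known. The authors mapped ChAP-seq reads to mm9, merged libraries of a genotype and called sites with SICER 1.1 in windows of 50 bp. Per site the deposited counts are whole reads of each genotype, the deposited p-value and FDR come from the peak caller, and the deposited ratio is the fold over control after the authors' scaling for library size. The deposited CPM are reads mapped to RefSeq transcripts, scaled by the authors to each library's total. ATAC positions are those the authors called as T3-regulated, by edgeR in the methods, while a figure legend names SICER.

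Sites were overlapped, placed on GENCODE genes of mm9 and searched for motifs with Python 3.11.15, numpy 2.4.6, scipy 1.17.1 and pandas 2.3.3. A gene has a member at a start when the site lies within 1 kb of any of its transcript starts. Shares were compared by Fisher's exact test, two-sided, adjusted over 13 comparisons. RNA was fitted as log2(CPM + 1) of all 18 libraries in a single model of 4 groups (limma 3.58.1, R 4.3.3), for genes with CPM above 1 in every library, with 1 transcript for each gene. Of the tested genes 98.1% were found in the annotation. Alternatives used edgeR 4.0.16 and DESeq2 1.42.0 size factors on the whole reads recovered from the CPM. With 21453548 to 55273749 reads in a library, 3 reads amount to 0.0543 to 0.14 CPM. The fits and searches were tested on simulated data.

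The main fit did not pair libraries, and replicate number was a block in an alternative only. Deviations from the group means correlated in all 4 same-numbered wild-type pairs (r 0.255 to 0.815). Same-numbered libraries of different genotypes correlated too, for example hypothyroid wild type 1 with hypothyroid Thrb-KO 1 (r 0.616). Hypothyroid wild type 2 did so with hyperthyroid Thrb-KO 2 (r 0.751). Only 3 of 8 wild-type libraries correlated best with their own number, so these values do not establish a pairing.

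Sites and genes named are those with the lowest FDR, those with the fewest DR4 mismatches (ties by reads, chromosome 18 left out), those at starts of listed genes, the genes holding most members, the genes at whose start a member lies that changed most in either direction without overlap, and Thrb and Thra. Pseudogenes, Rps6k kinases and symbols ending in ip were left out of the lists made by symbol for ribosomal and proteasome genes. Treated ChAP-seq and histone ChIP-seq were not used here. Results of some genes that the rule names are not reported here.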

Additional observations from a re-analysis of the deposited data

Results flagged for a closer look

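Libraries far from the rest of their group (Dixon's ratio) were looked for in 56 groups of libraries of 14 genes, and 3 were found. Chance alone flags about 1 in 20 groups. Olfml2b stood at 3.08 CPM in hypothyroid wild type 1, with 2.07 to 2.18 CPM in the other 3. Hspa1b stood at 13.6 CPM in hyperthyroid Thrb-KO 1, with 3.03 to 4.71 CPM in the rest. Serpine2 stood at 101 CPM in hypothyroid Thrb-KO 5, with 68.7 to 75.5 CPM in the rest.

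Of these 14 genes, the T3 response of 9 differed between wild type and Thrb-KO (limma interaction, adjusted p under 0.05). On the log2 scale the difference was 1.47 for Syt12, 1.00 for Olfml2b, 1.65 for Cux2, 1.61 for Slc25a42 and 1.31 for Foxred2, all with the larger rise in wild type. It was -1.29 for Tmem35, -0.52 for Pld3 and -1.26 for Thrb, which fell more in wild type, and -1.04 for Npas4, which fell in wild type and changed by 0.31 in Thrb-KO. These genes were picked for their change in wild type or for their place in a list, which favours differences of this kind for the former. No technical explanation was tested.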

How the results depend on the processing

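Of 452 values of 34 results, 430 were classed as unchanged. Among them 95 of 99 shares of sites and 242 of 252 values of named genes kept their direction and their side of the threshold. Counts of called genes (84 of 90 unchanged), the number of members (5 of 6) and the overlap with ATAC (4 of 5) were classed only by closeness to the main value. An FDR under 1e-10 left 1201 members, and limits of 16 and 20 reads gave 2885 and 3468. The DR4 share minus that of strong cortex-only sites turned to -0.890 points with that FDR limit, to -2.39 over the whole called site and to -0.916 away from starts, and the share minus that of windows 10 kb away turned to -0.0524 at starts. The cause was not tested. Overlap with ATAC fell to 0.0833% with the FDR limit. The TSS share differed from that of strong cortex-only sites by -26.0 to -19.7 points, and the multi-copy share by 2.29 to 10.3, over all settings. Against weak pituitary-only sites the settings gave 3.92 to 12.1 points for the TSS share and 6.08 to 12.1 for the CpG-rich share. Both were lowest with the FDR limit.

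Without a fold limit 2536 genes were called, 906 higher and 1630 lower, with 171 at starts of members and 580 within 20 kb, and 487 were lower with a pseudocount of 5. Leaving out a wild-type library gave 459 to 650 higher and 684 to 786 lower genes, and 76 to 91 at starts. With the replicate block 1294 genes were called, 86 of them at starts, and none of the 14 genes refitted under the alternatives changed its call. Other genes named were fitted once only. A block for replicates 1 and 2 against the others, single-copy sites alone and other copy limits were added after the data were seen. Thra (-0.44) passed without a fold limit. A repeat share was not run, as the reference marks no repeats. Reads are not scaled between tissues, and whether depth sets apart weak sites of the cortex from the pituitary list was not tested.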

Other observations

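Gadd45a, which acts in DNA repair and stress arrest, was singled out after its values were seen. Its member (chr6:66986451-66986850, 17 reads against 3) lay 201 bp from a pituitary site of 96 reads, which covers the start together with a shared cortex site of 27 reads. The gene was at 12.8, 14.8, 13.04 and 19.6 CPM in hypothyroid and at 43.8, 37.1, 45.5 and 38.5 CPM in hyperthyroid wild type, without overlap. It changed by 1.41 on the log2 scale (limma adjusted p = 6.18e-06) and by 0.48 in Thrb-KO (limma adjusted p = 0.161), an interaction of 0.93 (limma adjusted p = 0.02).

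Gad2 was at 25.9 to 52.2 CPM and 28.7 to 56.5 CPM in wild-type pituitaries and at 12.6 to 16.98 CPM in all 10 Thrb-KO libraries, so that the genotypes did not overlap whatever the treatment. This difference was seen after the fit and was not tested.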
